A study of Mus musculus with 7 samples.

Results

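The transcripts of 9 RNA-binding proteins that steer alternative splicing in striated muscle were measured in the quadriceps of mice with a polyglutamine-expanded androgen receptor. The 9 genes were Mbnl1, Mbnl2, Mbnl3, Celf1, Celf2, Rbfox1, Rbfox2, Rbm20 and Rbm24. They were chosen by name, and every array probe whose deposited gene name or current symbol was one of them was taken, which gave 19 of 39429 probes. Of these, 17 probes from 8 genes were well above background on all 7 arrays and could be compared, among 20947 probes compared in all. The genotypes were WT and AR113Q, both C57BL/6 and 3 months old by the sample labels (90 days by the series text). Total RNA of 4 WT and 3 AR113Q animals was hybridised, with Cy3, to 1 single-colour Agilent array each. AR113Q is a model of spinal and bulbar muscular atrophy, in which a humanized androgen receptor with an expanded CAG tract is knocked into the mouse gene and is not driven by a muscle promoter. The labels and legends call the controls WT, whereas the study's text describes knock-in controls carrying an unexpanded CAG tract, so that the humanized allele of the controls is not settled here. No treatment is named in the sources used here, and the series text writes the mutant as AR113Q-NCD without explaining the suffix.

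Muscle switches many exons from a fetal to an adult pattern after birth, and these proteins are among the factors that set it. The Mbnl (muscleblind-like) proteins bind YGCY motifs and promote adult exon choices. The Celf proteins bind GU-rich RNA, act against Mbnl on a set of shared exons and also promote mRNA decay. In myotonic dystrophy, Mbnl proteins are trapped on expanded CUG repeats and Celf1 rises, and the chloride channel Clcn1 is then misspliced. The Rbfox proteins bind UGCAUG and activate or repress an exon according to whether they bind after or before it. Rbm20 represses exons of titin and other sarcomeric transcripts, and Rbm24 promotes inclusion of muscle exons. An array probe measures the amount of the transcript part it matches, and neither the protein nor exon inclusion.

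All values below are log2 intensities after quantile normalization between arrays, and a difference is AR113Q minus WT on that scale. Between 18782 and 22011 probes per array were well above background, and no spot was saturated. Before normalization the compared probes were brighter in AR113Q by a median of 0.48, and after it the median difference was 0.01, so a change is relative to the bulk of transcripts. Arrays correlated at 0.983 to 0.987 within WT, at 0.969 to 0.981 within AR113Q and at 0.908 to 0.943 between genotypes. All 9 fast fibre markers and all 8 slow fibre markers could be compared. Of the fast markers 2 fell, beside 22.6% of all genes. Of the sex genes, Ddx3y (0.96, adjusted p = 0.00289), Eif2s3y (0.66, adjusted p = 0.0227) and Uty (0.59, adjusted p = 0.0727) could be compared, and probes for Xist and Kdm5d were well above it on 0 of 7 arrays.

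Rbfox1 fell most, on both of its probes, by 3.43-fold and 3.36-fold. Mbnl1 fell 1.99-fold on its single probe. Mbnl2 rose 4.70-fold on the most upstream of its 3 probes, while the other 2 did not pass the test. Celf1 fell 1.92-fold on the most upstream of 3 probes and Rbfox2 rose 2.28-fold on the more downstream of 2, again without the other probes of the gene. Rbm20 rose 1.96-fold on 1 of 2 probes. No probe of Celf2 or Rbm24 passed, and Mbnl3 was not well above background.

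In counts, 4 of 17 probes were lower in AR113Q (limma, adjusted p at most 0.05) and 3 were higher, and 10 were neither. Over all compared probes, 21.6% were lower and 22.2% higher, so the share of member probes called was near that of the array as a whole. With a log2 difference of at least 1 in size as well, 2 member probes were lower, both of Rbfox1, and 2 were higher, against 12.6% and 12.2% of all probes. WT and AR113Q values did not overlap for 8 member probes, as was the case for 49.6% of all probes. The median difference was −0.14 over the 17 probes and 0.01 over all probes. With each gene read by its brightest probe, 2 of 8 genes were lower and 1 was higher, against 22.6% and 21% of 16553 genes.

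**Figure D1:**
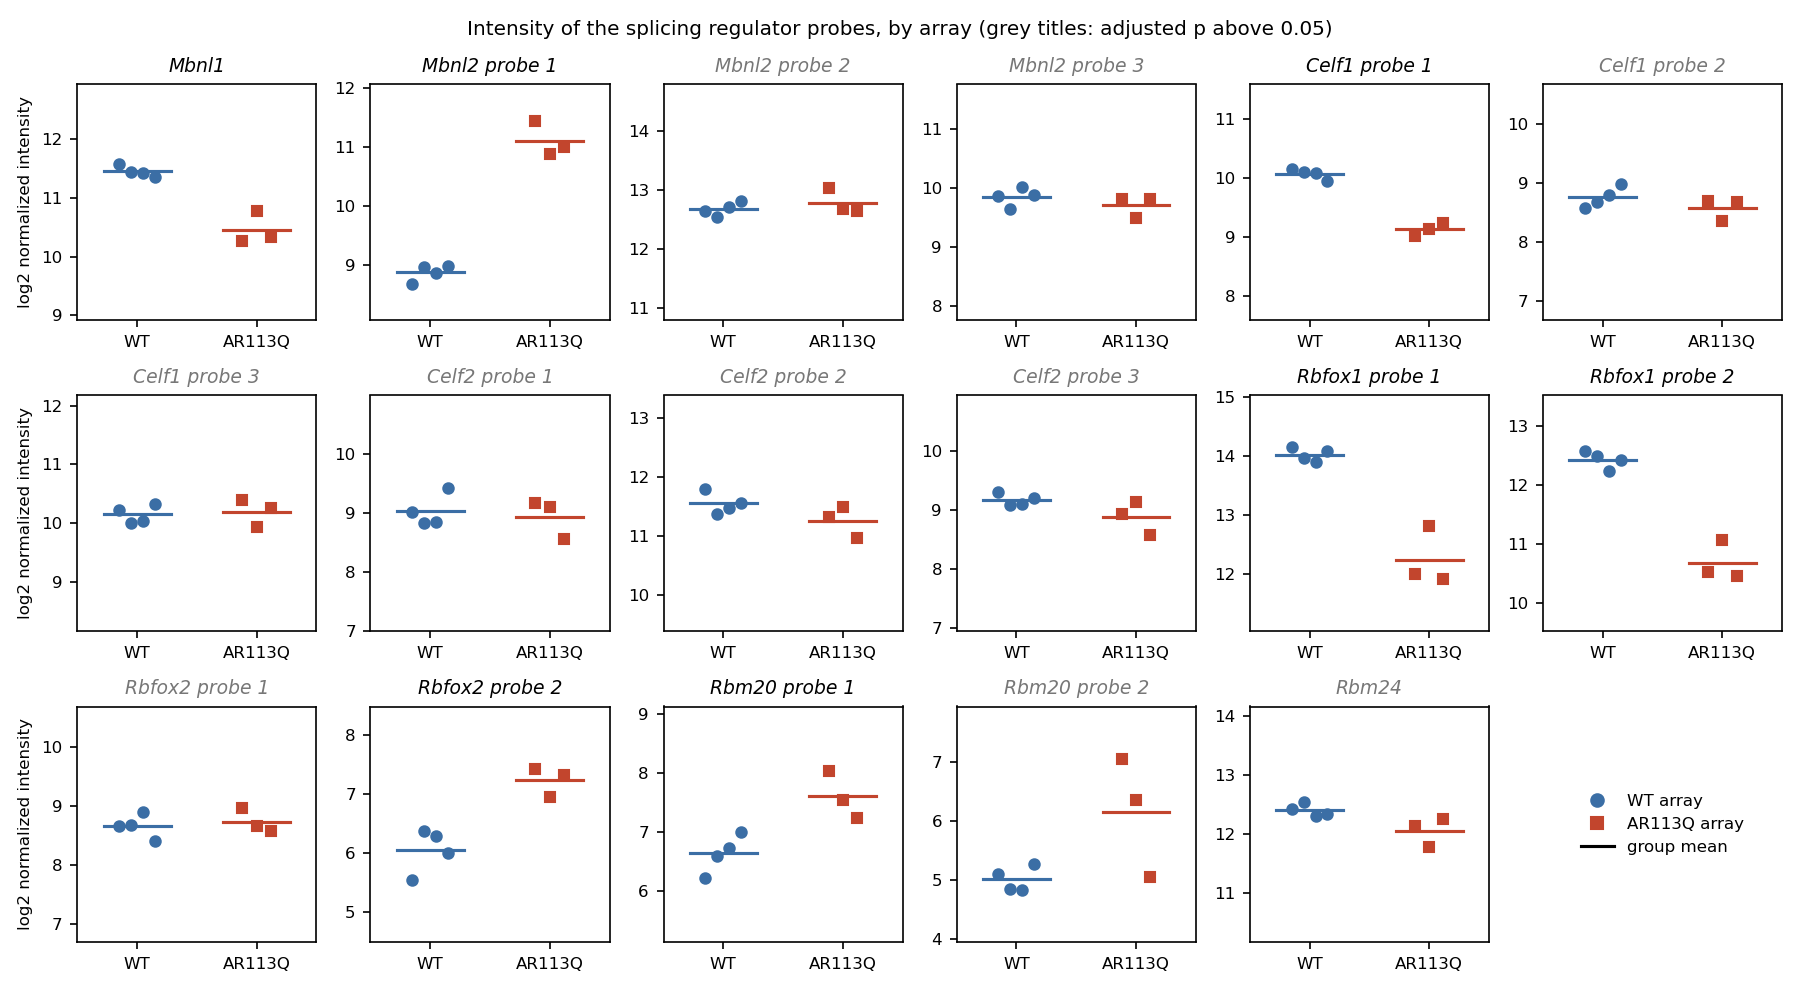
Each panel is 1 probe, with log2 normalized intensity on the vertical axis, 1 point per array (circles WT, squares AR113Q) and a line at each group mean; every panel spans the same number of log2 units, and probes of a gene are numbered from upstream to downstream. Rbfox1 and Mbnl1 lie lower in every AR113Q array, whereas Mbnl2, Celf1 and Rbfox2 each have 1 probe that separates the genotypes and others that do not.

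The probes of Mbnl2, Celf1 and Rbfox2 are shown because their readings differed within a gene, and the result turns on which stretch of the transcript each probe matches. Positions come from the annotation of the array, on mouse build mm9, which names a transcript and a place in it but not the exon or untranslated region. Sequences are given 5′ to 3′ as deposited, whole for the first Mbnl2 probe and as 30 of 60 bases for the others, with AATAAA, the hexamer of most polyadenylation signals, in capitals. The genes lie on chr14 (plus strand), chr2 (plus strand) and chr15 (minus strand).
Mbnl2, the first probe, chr14:120803865-120803924: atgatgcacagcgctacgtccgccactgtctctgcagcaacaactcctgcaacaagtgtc
Mbnl2, the second probe, first 30 bases, chr14:120828398-120828457: accagctgtgatgttcgaagacatacagga
Mbnl2, the third probe, first 30 bases, chr14:120829956-120830015: aatttgtggaaaggtattgtatctaacttg
Celf1, the first probe, first 30 bases, chr2:90855171-90855230: tagtgataagttgagtctgttgtcctctta
Celf1, the second probe, last 30 bases, chr2:90857133-90857192: ttttaaagacaactttgaAATAAAcaatga
Celf1, the third probe, first 30 bases, chr2:90858616-90858675: tattatgcttgaggccaccttactaggaag
Rbfox2, the first probe, first 30 bases, chr15:76914284-76914343: tttggaggggggttggttttttgggggttt
Rbfox2, the second probe, first 30 bases, chr15:76912771-76912830: tacacatttttgactgataaatgattcatg

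The first and second Mbnl2 probes were 331 bases apart in the annotated transcript and 24533 bases apart in the genome, so at least 1 intron lies between them. The second and the third Mbnl2 probe were 1558 bases apart in both, and the same held for the Celf1 probes (1962 and 1483 bases), the Rbfox1 probes (1546 bases) and the Rbfox2 probes (1513 bases), with no intron between neighbours in the annotation. AATAAA was found in the only Mbnl1 probe, 2 times, and in the second Celf1 probe, from base 49. Of 39429 probes on the array, 12.6% hold it on the printed strand and 4.03% on the other. The first Rbfox2 probe consisted of G or T at 57 of 60 bases, a composition reached by 0.00507% of array probes. Whether that composition affects its reading was not tested.

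Among the muscleblind genes, Mbnl1, the main muscleblind protein of adult muscle, was read by 1 probe at chr3:60433601-60433660. Its values were 11.57, 11.44, 11.41 and 11.36 in WT and 10.26, 10.77 and 10.33 in AR113Q. Every AR113Q array lay below every WT array. The difference was −0.99 ± 0.17 (SE, adjusted p = 0.00267), just under the 2-fold threshold.

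Mbnl2 encodes the muscleblind protein that is most prominent in brain and that can act in place of Mbnl1 in muscle. Its first probe read 8.68, 8.97, 8.86 and 8.99 in WT and 11.44, 10.88 and 11.00 in AR113Q. The genotypes were far apart on this probe, by 2.23 ± 0.18 (SE, adjusted p = 0.000142). The second probe read 12.65, 12.54, 12.72 and 12.81 in WT and 13.04, 12.67 and 12.65 in AR113Q, a difference of 0.11 with a 95% interval of −0.27 to 0.48 (adjusted p = 0.627). The third read 9.85, 9.64, 10.01 and 9.87 in WT and 9.81, 9.49 and 9.81 in AR113Q, a difference of −0.14 with an interval of −0.52 to 0.24 (adjusted p = 0.515). On both of these the genotypes overlapped. The probes gave Mbnl2 no single direction: it was higher at the probe before the annotated intron and not called at those after it.

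The unequal change of the Mbnl2 probes was tested directly on the ratio of probes within each array, taken on the same normalized values. The log2 ratio of the second to the first probe was 3.97, 3.57, 3.86 and 3.83 in WT and 1.61, 1.79 and 1.64 in AR113Q. It fell by 2.13 ± 0.15 (SE, limma over 5337 pairs of probes of the same gene and 4 pairs within a family, adjusted p = 0.000331), a difference larger in size than that of 97.7% of same-gene pairs on the array. The ratio of the third to the first probe fell by 2.37 ± 0.18 (SE, adjusted p = 0.000461), larger than 98.4% of pairs. The second and the third probe were not found to differ from each other (adjusted p = 0.307, 95% interval of the difference −0.60 to 0.11).

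Mbnl3, the muscleblind protein linked to proliferating myoblasts, had 2 probes. One was well above background on 0 of 7 arrays and the other on 1, a WT array. With 4 WT and 3 AR113Q arrays in the comparison, no fold is given for Mbnl3.

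Celf1 was read by 3 probes within one uninterrupted stretch. The first gave 10.15, 10.09, 10.08 and 9.95 in WT and 9.01, 9.13 and 9.24 in AR113Q. The genotypes did not overlap, and the difference was −0.94 ± 0.14 (SE, adjusted p = 0.00147). The second, which holds AATAAA, differed by −0.18 (95% interval −0.56 to 0.21, adjusted p = 0.425) and the third by 0.05 (−0.35 to 0.45, adjusted p = 0.851), and on both the genotypes overlapped.

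The Celf1 ratio of the first to the third probe was −0.08, 0.08, 0.04 and −0.38 in WT and −1.40, −0.80 and −1.02 in AR113Q, and it fell by 0.99 ± 0.19 (SE, adjusted p = 0.00912). The ratio of the first to the second fell by 0.77 ± 0.19 (SE, adjusted p = 0.0239). That second call was lost without WT array 1, 2 or 3 and without AR113Q array 1 or 3, each left out alone (adjusted p = 0.0529 to 0.0769). The second and the third probe were not found to differ (adjusted p = 0.344).

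Celf2, which is expressed in heart, brain and immature muscle, was read by 3 probes with differences of −0.09, −0.29 and −0.29 (adjusted p = 0.759, 0.227 and 0.217). Its brightest probe read 11.79, 11.37, 11.48 and 11.55 in WT and 11.32, 11.48 and 10.96 in AR113Q, and the genotypes overlapped. The 95% interval of its difference ran from −0.72 to 0.13. The differences of −0.29 became −0.15 and −0.13 without AR113Q array 3, and both were −0.41 without AR113Q array 2, with no call in either case. No pair of Celf2 probes was found to differ. Nor were the brightest Celf1 and Celf2 probes (0.34, interval −0.16 to 0.84, adjusted p = 0.318), a value that was 0.59 without AR113Q array 2 (adjusted p = 0.0539) and 0.17 without AR113Q array 3 (adjusted p = 0.657).

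Rbfox1, the Rbfox protein enriched in muscle, heart and neurons, gave the largest fall of the members. Its first probe, chr16:7409998-7410057, read 14.15, 13.97, 13.89 and 14.09 in WT and 12.01, 12.82 and 11.91 in AR113Q. Its second, chr16:7411544-7411603, read 12.58, 12.49, 12.23 and 12.41 in WT and 10.52, 11.06 and 10.45 in AR113Q. AR113Q array 2 was the highest of the mutant arrays on both, and still lay at least 1 log2 unit below every WT array. The differences were −1.78 ± 0.24 (SE, adjusted p = 0.000838) and −1.75 ± 0.19 (SE, adjusted p = 0.000419), and the probes were not found to differ from each other (0.03, 95% interval −0.30 to 0.36, adjusted p = 0.910).

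Rbfox2, the widely expressed paralog, did not follow Rbfox1. The G- and T-rich first probe differed by 0.07 (95% interval −0.34 to 0.48, adjusted p = 0.767). The second read 5.53, 6.37, 6.27 and 5.99 in WT and 7.42, 6.95 and 7.31 in AR113Q, so that all AR113Q arrays were higher, by 1.19 ± 0.24 (SE, adjusted p = 0.00475). The within-array ratio of the second to the first probe rose by 1.12 ± 0.22 (SE, adjusted p = 0.0104), and by 0.60 with normexp (adjusted p = 0.00775). The second probe was dim, and its difference shrank to 0.67 when the background was corrected with normexp and to 0.48 in the authors' normalized values, with the call kept in both (adjusted p = 0.00804 and 0.0129). The within-array ratio of the brightest Rbfox1 to the brightest Rbfox2 probe fell by 1.85 ± 0.29 (SE, adjusted p = 0.0036).

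**Figure D2:**
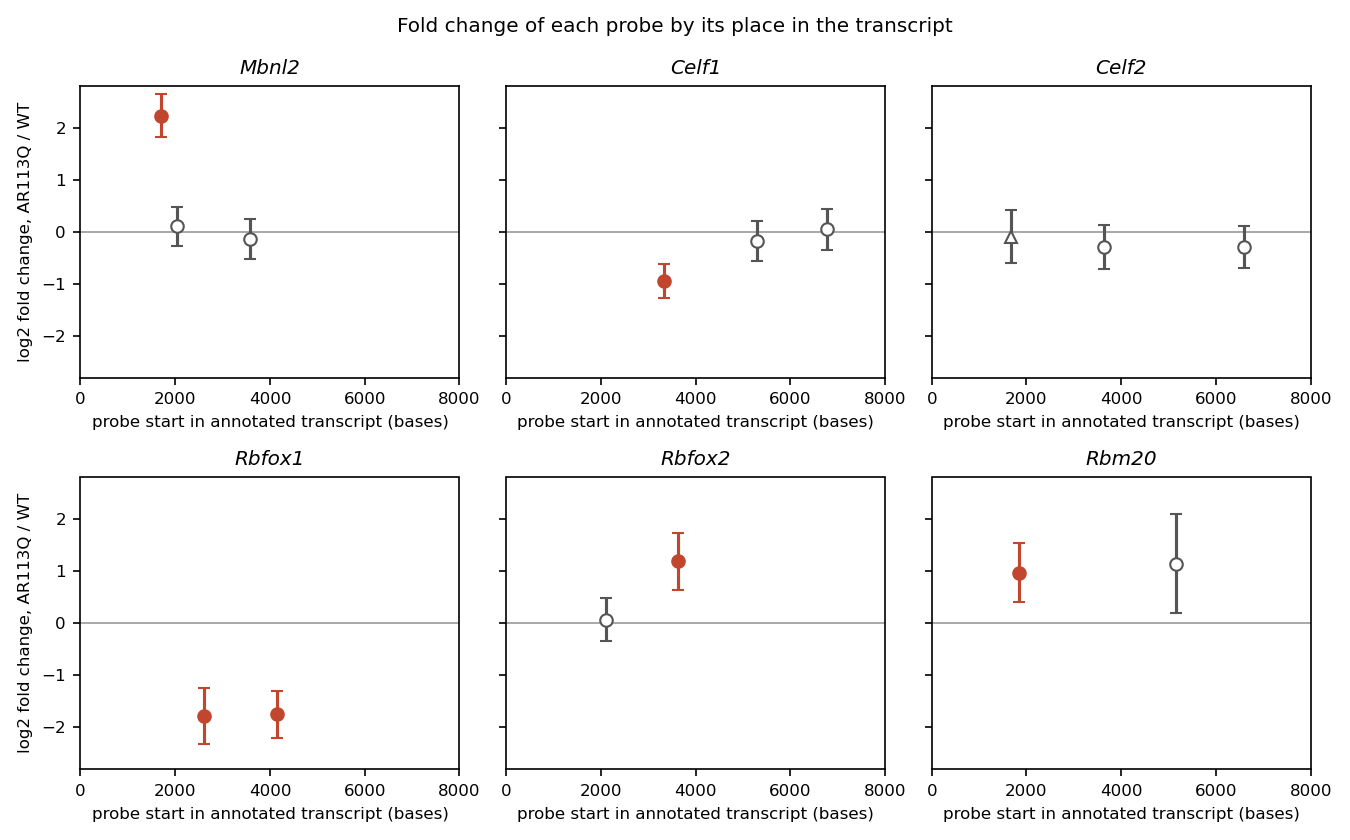
Log2 fold change of each probe (AR113Q over WT, points, with 95% intervals from limma) against its start in the annotated transcript in bases, for the 6 genes with more than 1 compared probe. Filled points passed an adjusted p of 0.05, and the triangle marks a Celf2 probe annotated on another transcript. Rbfox1 changed alike at both positions, at −1.78 and −1.75, while Mbnl2 went from 2.23 to 0.11 over 331 bases.

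Rbm20 was higher in AR113Q. Its first probe read 6.22, 6.59, 6.73 and 6.99 in WT and 8.03, 7.54 and 7.23 in AR113Q, without overlap and with a difference of 0.97 ± 0.25 (SE, adjusted p = 0.0144). This probe was dim too, and normexp gave 0.64 (adjusted p = 0.0096). It was absent from the authors' normalized values. The second read 5.10, 4.85, 4.83 and 5.28 in WT and 7.06, 6.36 and 5.06 in AR113Q. AR113Q array 3 lay within the WT values there, and the difference of 1.14 ± 0.42 (SE) did not pass (adjusted p = 0.0542). It rested on single arrays, at 1.70 without AR113Q array 3 (adjusted p = 0.00226) and 0.69 without AR113Q array 1 (adjusted p = 0.17). It was 0.38 with normexp, 0.41 with no background subtraction and 0.24 in the authors' normalized values, and passed in none of these. The 2 probes were not found to differ (adjusted p = 0.744).

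Rbm24 was read by 1 probe, at 12.43, 12.55, 12.31 and 12.33 in WT and 12.15, 11.78 and 12.26 in AR113Q. The genotypes did not overlap, by a narrow margin, and the difference of −0.35 ± 0.17 (SE) did not pass (adjusted p = 0.132). It was −0.20 without AR113Q array 2 (adjusted p = 0.36), and with array weights it was −0.48 and passed (adjusted p = 0.0411). The ratio of Rbm20 to Rbm24 rose by 1.31 ± 0.29 (SE, adjusted p = 0.0145), a call lost without AR113Q array 1 (adjusted p = 0.0514), and that of Mbnl1 to the brightest Mbnl2 probe fell by 1.10 ± 0.22 (SE, adjusted p = 0.0107). The share of pairs of different genes that differ over the array was not computed, and a pair with Mbnl3 could not be fitted.

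**Figure D3:**
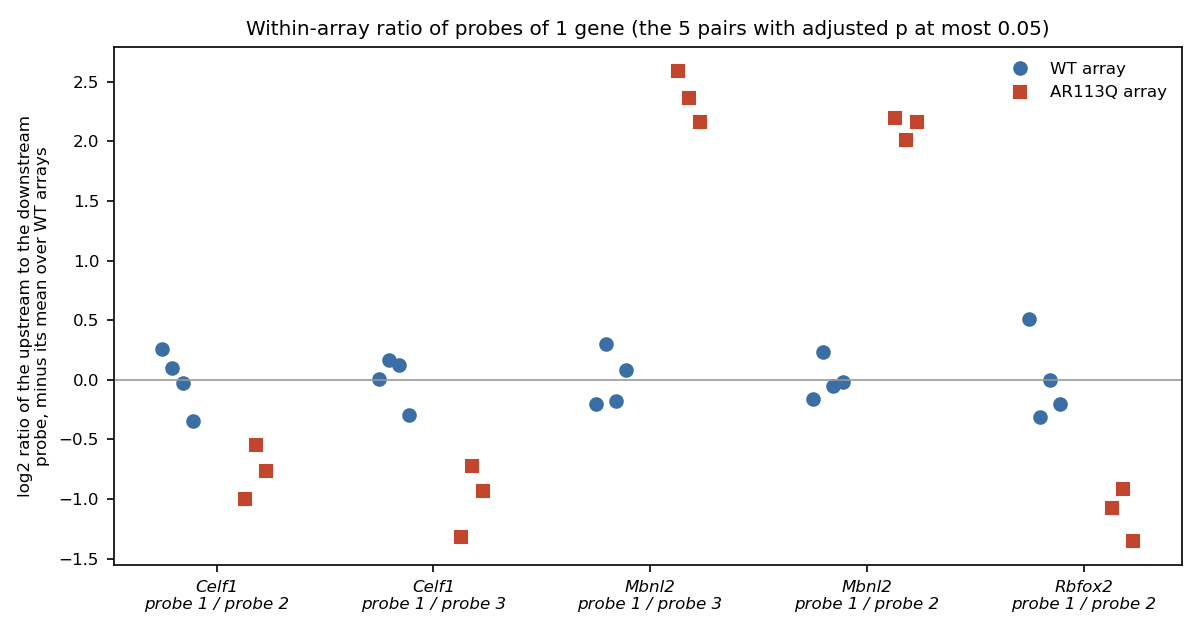
Log2 ratio of the upstream to the downstream probe of the same gene within each array, minus its mean over the WT arrays, for the 5 pairs with an adjusted p of at most 0.05 (circles WT, squares AR113Q). The ratio was higher in every AR113Q array for both Mbnl2 pairs, and lower for the Celf1 and Rbfox2 pairs.

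Of 12 pairs of probes of the same member gene, 5 differed, beside 21.9% of the 5337 same-gene pairs on the array. Both Mbnl2 pairs share the first Mbnl2 probe and both Celf1 pairs the first Celf1 probe, so these pairs are not independent. Probe position moved with genotype across the array as well. The signed log2 difference of the upstream probe minus that of the downstream one was taken over 3940 pairs on 1 transcript. Its median was 0.12 (quartiles −0.12 and 0.48), and 0.29 over the 1712 pairs at least 1000 bases apart. A positive value means that the upstream probe lay higher in AR113Q relative to the downstream one. The Mbnl2 pairs were displaced in this same direction by more than 2, and the Celf1 and Rbfox2 pairs in the opposite one. The part of this shift in the members' values was not tested.

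Of the members, only Rbfox1 passed both thresholds on its brightest probe. The 3 genes whose mean-centred values lay closest to those of Rbfox1 over the 7 arrays were Mllt3, Gm14325 and Pxdn, with a root-mean-square difference of 0.113, 0.126 and 0.132 among 16553 genes. Their own differences were −1.71, −1.69 and −1.78.

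The remaining genes of the same families were mostly not measurable. Of 6, only Celf4 (0.35, adjusted p = 0.467) and Rbm38 (−0.64, adjusted p = 0.0386) were compared, and the Rbm38 call was lost in 9 of 20 alternative analyses. A second Celf4 probe gave −0.42 (adjusted p = 0.113), opposite in sign to the brightest. Probes for Celf3, Celf5, Celf6 and Rbfox3 did not pass the filter.

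Of 11 SR proteins, which bind exonic enhancers, 6 rose and 2 fell, with a median of 0.53 beside −0.01 over all genes, of which 21% rose and 22.6% fell. The highest were Srsf5 (1.71, adjusted p = 0.000177), Srsf3 (1.34, adjusted p = 0.00082) and Srsf2 (1.33, adjusted p = 0.000899), and the 2 lower ones were Srsf9 (−1.07) and Srsf6 (−0.87). Probes of a gene disagreed here too, from −2.03 to 1.34 in Srsf3 and from −0.87 to 1.27 in Srsf6. They ran from −2.82 to 0.53 in Srsf7 and from −1.23 to 1.43 in Srsf10. Of the 7 kinases that phosphorylate SR proteins, Clk1 (1.05), Clk4 (0.69) and Clk2 (0.46) rose, Srpk3, the muscle-enriched kinase, fell by 2.02 (adjusted p = 0.0189), and Clk3 (0.34), Srpk1 (−0.17) and Srpk2 (0.07) did not pass. The Clk2 call was lost in 8 of 20 alternative analyses. Clk3 was 0.59 and passed without AR113Q array 3 (adjusted p = 0.0361), and was 0.14 without AR113Q array 1 (adjusted p = 0.646). Srpk3 read 11.52 to 11.66 in WT and 7.93, 10.40 and 10.38 in AR113Q, and without AR113Q array 1 its difference was −1.20. Its call was lost in 2 of 20 alternative analyses.

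Of 25 hnRNP and PTB proteins, many of them splicing repressors, 11 rose and 2 fell, with a median of 0.42. The highest were Hnrnpl (1.47), Ptbp2 (1.01) and Ptbp3 (0.92). Hnrnph1 fell by 0.66, and Hnrnph3 by 1.26 on a probe that was well above background on 5 arrays and whose call was lost with normexp (−0.27, adjusted p = 0.0692). The Hnrnph1 call was lost in 2 of 20 alternatives. Of 30 other regulators, 10 rose and 4 fell, with a median of 0.02. Apart from an analysis with slide as a fixed term, the number that fell ran from 2 to 6 over the alternatives. Rbm4b (1.80) and Taf15 (1.48, well above background on 4 arrays) were the highest. Before normalization the Taf15 intensity was 7.5 to 17.27 in WT and 31.31 to 43.1 in AR113Q. The WT values lay near the lowest intensities called well above background on those arrays (10.9 to 15.4). Tardbp (−0.93), Elavl1 (−0.87) and Qk (−0.81) were the lowest. Other probes of these last 3 genes reached 1.26, 1.53 and 0.97, so the direction of each depended on the probe, without AR113Q array 3 Tardbp differed by −0.54, and its call was lost in 8 of 20 alternatives. Of 31 core spliceosome genes, 9 rose, led by Sf3b4 (1.01), Sf1 (0.99) and Prpf6 (0.80), and 2 fell, Sf3b1 (−1.42) and Snrpf (−0.80), with a median of 0.13. That count stands beside 21% of all genes higher and 22.6% lower. Apart from the analysis with slide as a fixed term, where none passed, the number that rose ran from 3 to 11 over the alternatives, and the Prpf6 call was lost in 7 of 20. Without AR113Q array 1, Sf3b1 differed by −0.93. Several of these probes were dim, and with normexp the difference was 0.79 for Hnrnpl, 0.56 for Ptbp2, 0.46 for Ptbp3, 0.72 for Rbm4b, 0.33 for Taf15 and −0.64 for Sf3b1, all still past the test.

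Transcripts whose exons are known targets of these proteins were compared for their amount only. Of 24, 1 rose and 9 fell, with a median of −0.17, beside 21% of all genes higher and 22.6% lower. Apart from the slide term the number that fell ran from 5 to 12 over the alternatives. The muscle chloride channel Clcn1 read 9.46 to 9.50 in WT and 5.99, 7.39 and 7.57 in AR113Q, a difference of −2.50 ± 0.35 (SE, adjusted p = 0.00107), or −1.62 with normexp. Ldb3, a Z-disc protein, fell by 2.11 (adjusted p = 0.0122) and Pdlim3 by 1.46 (adjusted p = 0.0102), and the insulin receptor Insr rose by 1.27 (adjusted p = 0.00421). Ryr2 had no probe that passed the filter.

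**Figure D4:**
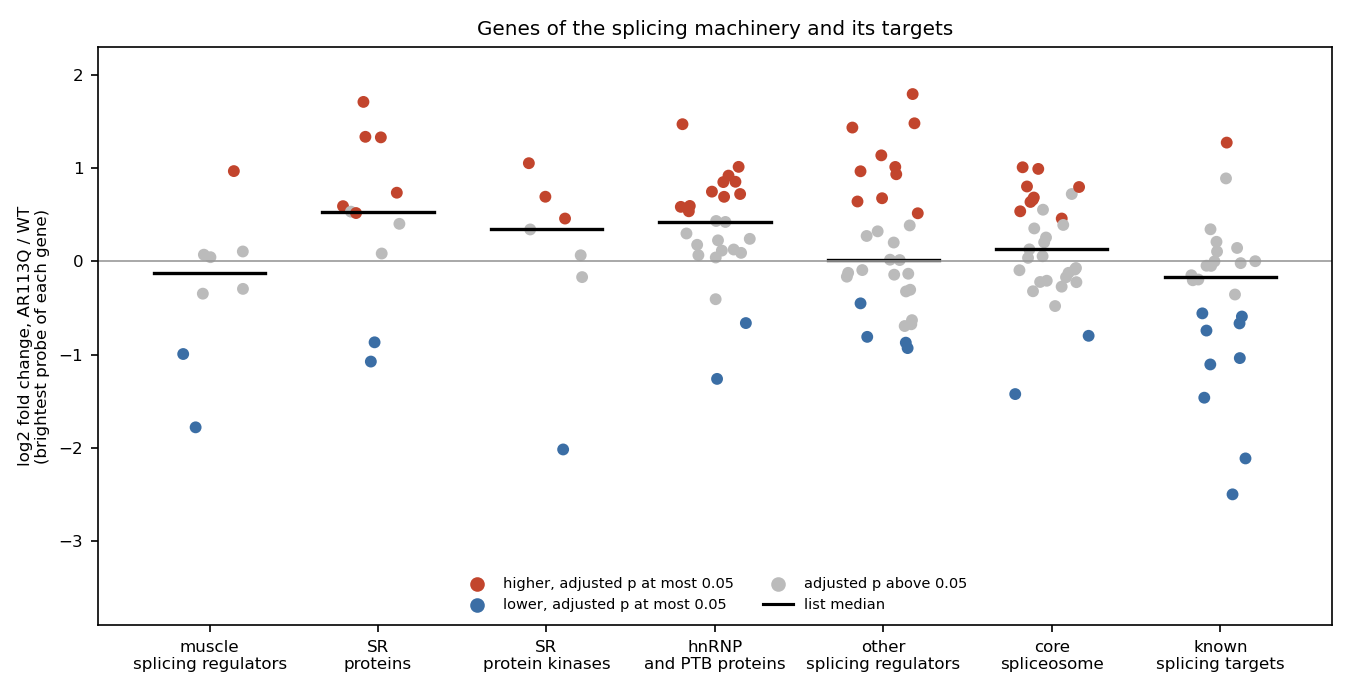
Log2 fold change (AR113Q over WT) of each gene's brightest probe in 7 gene lists, with points coloured by the limma call and a line at the list median. SR proteins and hnRNP and PTB proteins have medians of 0.53 and 0.42, and the splicing regulators and the known targets lie at −0.12 and −0.17.

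Some markers of other cells differed between the genotypes, beside 21% of all genes higher and 22.6% lower. Since the tissue was measured whole, fewer cells of a type and less RNA per cell cannot be told apart. Of 6 fibroblast markers 4 fell (Col3a1 −4.62, Dcn 0.41), and the sum of their normalized intensities, each gene at its brightest probe, was 103582 to 126358 in WT and 75044 to 105725 in AR113Q. Of 6 adipocyte markers 4 fell (Adipoq −2.71, Fabp4 −0.21), with sums of 33368 to 49082 and 28679 to 29186. Of 8 myofibre markers 2 fell (Myoz1 −1.11, Des 0.41), with sums of 837751 to 948012 and 489483 to 839474. Of 6 nerve markers compared 1 rose, Mbp (0.56), and 2 fell, each by more than 1 log2 unit, with a median of −0.58. S100b (−1.23), named after its values were seen, was among those that fell, and the neuronal genes Elavl4 and Nefl did not pass the filter. Their sums were 2379 to 5029 in WT and 1641 to 2280 in AR113Q.

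Fast fibre markers ran from Mylpf (−1.37) to Myh1 (0.31), with sums of 962851 to 1068968 in WT and 916912 to 956116 in AR113Q. Of 8 slow fibre markers 1 rose (Atp2a2 1.42, Myl2 −1.28), and their sums varied within each genotype, from 6153 to 36980 in WT and from 6406 to 89122 in AR113Q. Of 4 satellite cell markers 1 fell (Calcr −2.12, Megf10 −0.14). Endothelial markers had 1 of 6 in each direction (Pecam1 0.60, Vwf −1.05), macrophage markers 1 higher and 2 lower of 6 (Cd163 1.18, Adgre1 −1.94), and smooth muscle and pericyte markers 2 lower of 6 (Acta2 −0.74, Pdgfrb 0.37). Sums were lower in every AR113Q array for these 3 lists, at 5286 to 6836 in WT and 3378 to 5235 in AR113Q for endothelial, 5991 to 10517 and 3985 to 5472 for macrophage, and 13522 to 15125 and 8091 to 13442 for smooth muscle and pericyte markers. None of 5 erythrocyte markers passed (Alas2 −1.13, Hba-a2 −0.12). The counts in these lists stand beside 21% of all genes higher and 22.6% lower. The part of these cells in the members' values was not tested.

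The genotypes shared 1 of 5 slides, so slide could be set against genotype only between WT array 2 and AR113Q array 1. Within that slide, the 7 called member probes differed in the same directions, by −1.18 for Mbnl1, 2.46 for the first Mbnl2 probe, −1.09 for the first Celf1 probe, −1.97 for both Rbfox1 probes, 1.06 for the second Rbfox2 probe and 1.44 for the first Rbm20 probe. When slide was added to the fit as a fixed term, 0 of the 7 passed (smallest adjusted p 0.0512).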

How the data were processed

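Single-colour Agilent mouse arrays of quadriceps total RNA were analysed, 4 WT and 3 AR113Q, 1 animal each. The authors extracted the spots with Agilent Feature Extraction 10.7.3.1, per the labels. The deposited scanner files hold a background-subtracted, detrended intensity per spot, not normalized between arrays. The authors also deposited log2 values of 18592 probes, quantile normalized, which were used as an alternative only.

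Log2 intensities were taken, control spots removed, outlier spots (94 to 151 per array) set missing, and 43020 spots quantile normalized. A probe had to be well above background on 3 or more of 7 arrays (20990 were) and to have a value on every array (43 fewer, leaving 20947). Subtracting background spreads dim values. Symbols came through RefSeq accessions of a GRCm38.p6 gene table, which matched 28330 of 39429 probes and served for names only. Genotypes were compared with limma 3.58.1 (lmFit, eBayes; R 4.3.3), Benjamini-Hochberg adjusted over all kept probes. Probes of a gene were compared by fitting their within-array log2 difference in the same way, over all same-gene pairs. Lists were read at the brightest probe of each of 16553 genes, with p adjusted over all 20947 kept probes. The fit was tested on simulated data. The number of arrays limits precision.

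Named genes were all 9 members with every probe, every gene of the lists of remaining family members, SR protein kinases and sex genes, up to 3 highest and 3 lowest called genes of the splicing lists, the highest and lowest of each marker list, and the 3 genes nearest to a member past both thresholds. A few genes that this rule names are not reported here. The members and lists were chosen with earlier results of these data known. Alternatives were scaling, background correction, filters, variance models, slide, replicate number and each array left out.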

Additional observations from a re-analysis of the deposited data

How the results depend on the processing

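The 7 member calls kept their direction in every alternative run and passed in all but one that tested them. Adding slide as a fixed effect leaves 1 slide with both genotypes to give the difference, and 0 member probes were lower and 0 higher by limma, as were 0 past both thresholds over all probes (smallest adjusted p 0.0512), although 4 and 4 member probes had an unadjusted p of at most 0.05 (7912 over all probes). Read by 1 probe per gene, 2 members were lower and 1 was higher. Leaving out each array in turn gave 4 lower, 3 to 4 higher, 4 to 5 differing pairs of probes of 1 gene and 4445 to 5555 probes past both thresholds. That last count was 5199 in the analysis reported, 2082 with normexp, 2258 with no background subtraction and 1592 in the authors' values, which held 16 member probes. Replicate numbers did not pair the arrays (same-number correlations of deviations 0.04, −0.02 and 0.16). With the replicate block, 4 member probes were lower and 4 higher, the fourth being the second Rbm20 probe (1.23, adjusted p = 0.047), and 5183 probes passed both thresholds. That probe also passed with array weights, with an intensity trend and with a filter requiring all 7 arrays, which gave 4 higher each, and with array weights 5 were lower, the fifth being Rbm24 (−0.48, adjusted p = 0.0411).

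Directions turned only in uncalled probes. The third Mbnl2 probe gave 0.17, the second Celf1 probe 0.014 and the first Celf2 probe 0.33, each with slide as a fixed effect and within slide 2. The third Celf1 probe gave −0.083 with array weights. With the replicate block, the first Rbfox2 probe gave −0.013, the first Celf2 probe 0.038 and Srpk2 −0.031, and with the slide term Srpk1 gave 0.41 and Srpk2 −0.33. Leaving out 1 array at a time, differences ran from −0.021 to 0.18 for the second Mbnl2 probe, from −0.043 to 0.15 for the first Rbfox2 probe, from −0.059 to 0.18 for the third Celf1 probe, from −0.21 to 0.098 for the first Celf2 probe, from −0.023 to 0.62 for Celf4 and from −0.031 to 0.16 for Srpk2. The analyses of genes outside the members were chosen after seeing the data. Apart from the slide term, SR proteins higher ranged from 4 to 8 and lower stayed at 2, hnRNP and PTB proteins higher ranged from 6 to 12, core spliceosome genes higher from 3 to 11 and known targets lower from 5 to 12. The cause of these shifts was not tested.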
